A study of Mus musculus with 15 samples.

Results

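Collagens were examined across 15 RNA-seq libraries of mouse embryonic fibroblasts as every transcription unit (an assembled stretch of transcript that is given its own expression value) whose gene symbol is Col, a number, the letter a and a number. The rule found 71 units of 44 genes among 65522 units in the deposited table. Of these genes, 19 had 1 unit, 23 had 2 and 2 had 3 (Col24a1 and Col27a1), on 15 chromosomes. The fixed list of collagen classes held 45 symbols, and 1 of them, Col21a1, had no unit. There were 4 units whose name also carried another symbol, namely those of Col3a1 (with AC125167.1), Col20a1, Col24a1 (with Znhit6) and Col7a1 (with Mir711).

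All cells were female and on the C57BL/6 background. Primary embryonic fibroblasts (PEFs), each population from 1 embryo and taken before passage 5, were 3 WT populations (CIZ1 +/+, libraries S01 to S03), 2 CIZ1 null populations (S04 and S05) and 2 CIZ1 null populations with an inducible GFP-CIZ1 transgene that were left untreated (S06 and S13). A further 2 libraries of such transgenic CIZ1 null cells were treated with doxycycline at 5 to 10 µg per ml, which switches the transgene on (S14 and S15). Culture-adapted lines were 3 WT (S07 to S09) and 3 CIZ1 null lines (S10 to S12), each emerging in long-term culture from 1 of the primary populations: S09 from S01, S07 from S02, S08 from S03, S12 from S04, S10 from S05 and S11 from S06. CIZ1, a nuclear matrix protein enriched at the inactive X chromosome, was lost through a gene trap in the null mice. The 3 primary CIZ1 null populations compared with other groups were S04, S05 and S06, so 1 of them carried the transgene without doxycycline. The adapted line S11, which derives from S06, carried the transgene as well, also without doxycycline. The questions were how culture adaptation, loss of CIZ1 and induction of GFP-CIZ1 with doxycycline relate to collagen expression.

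Collagens are triple-helical proteins of the extracellular matrix. Fibroblasts secrete the fibrillar types I, III and V as procollagens whose propeptides are cleaved outside the cell, after which the molecules assemble into fibrils that lysyl oxidases crosslink. Other classes decorate fibrils (the fibril-associated FACIT collagens), form the sheet of basement membranes (type IV), short-chain networks (types VIII and X), beaded filaments (type VI) or anchoring fibrils (type VII), carry heparan or chondroitin sulphate chains next to basement membranes (multiplexins, types XV and XVIII), or span the cell membrane.

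Values were FPKM, fragments scaled by transcript length and by library, so that levels of different genes can be set side by side. Values of a group are listed in the order of its libraries, with S06 as the last of the primary CIZ1 null populations. A mean FPKM of at least 10 in any of the 6 groups was reached by 30 units of 18 genes. A further 11 genes had a unit between 1 and 10, 15 genes had every unit under 1 in every group, and 2 units, both of Col13a1, were at 0 in all libraries. Where a gene has 2 units they share a locus in the deposited table. The kit does not mark strand, reads may have been split between the units, and the second unit held from 8.89 to 10.8% of the first for Col6a2, 27.0 to 51.6% for Col1a2 and 55.7 to 98.0% for Col5a2 over the libraries. A sum over units is therefore a sum of unit values and not the FPKM of a gene.

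The depth of each library, read from the size of a single fragment's step among low values and set to 1 in S01, was 0.486 to 1.62. It was 1 to 1.62 in WT primary, 0.624 to 1.18 in WT adapted and 0.543 to 0.908 in CIZ1 null adapted libraries, so adapted libraries were mostly shallower. S13 was the shallowest library, at 0.486. Ciz1 was at 18.7 to 25.0 FPKM in the 6 WT libraries, at 0.0546 to 0.724 in the 7 CIZ1 null libraries without doxycycline, and at 296 and 191 in S14 and S15, as the labels have it. Of 8 fibroblast markers, all had at least 1 FPKM in every primary library, with summed levels (first unit of each gene) of 7710 to 8717 in WT primary cells, 2884 to 5250 in WT adapted cells, 6523 to 7353 in CIZ1 null primary cells (S04 to S06) and 1892 to 4930 in CIZ1 null adapted cells. Thy1, a surface marker of fibroblasts, was at 0 in S08 and 0.215 in S11 in its first unit, against 168 to 979 in the others, and the first unit of Lum, a fibril-binding proteoglycan, was at 0 in S07, S09 and S11. Other fibroblast markers were higher in some adapted lines: the first unit of Dcn, another proteoglycan that binds collagen fibrils, was at 24.1 to 68.5 in S01 to S06 and at 0.984, 46.5, 905, 800.0, 56.8 and 993 in S07 to S12. That of Pdgfra, a growth factor receptor of fibroblasts, was at 6.59 to 19.4 and at 35.1, 8.08, 17.7, 63.2, 8.77 and 28.0 in the same order. The summed level of 6 macrophage markers was 18.4 to 35.3 in WT primary and 2.15 to 8.77 in WT adapted cells, and 8.73 to 96.8 and 3.80 to 15.1 in CIZ1 null primary (S04 to S06) and adapted cells. That of 5 smooth muscle markers was 7709 to 9869 and 1384 to 3514 in WT cells, and 4504 to 7946 and 456 to 5415 in CIZ1 null cells, where the groups overlapped. Of 7 osteoblast markers, 2 reached 1 FPKM in every library of every group, with sums of 691 to 1022 in WT primary, 170 to 798 in WT adapted, 503 to 965 in CIZ1 null primary (S04 to S06) and 140 to 643 in CIZ1 null adapted cells. These 2 were Runx2 and Spp1, and Spp1 held most of each sum (676, 1004 and 776 in S01 to S03). Sp7, Bglap, Ibsp and Dmp1 were under 1 FPKM in every library. Chondrocyte markers (6) summed to 1.41 to 14 FPKM and glia and neuron markers (5) to 0.515 to 16.4 over all libraries. Each set of 7 epithelial, 6 endothelial and 6 skeletal muscle markers summed to less than 14 FPKM in every library. The part of these markers in the results below was not tested, and in such bulk samples fewer cells of a type cannot be told apart from less RNA per cell.

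Sequences are shown for the collagens called in both genotypes on adaptation (Col4a1, Col4a2 and Col5a3) and for Col7a1, the called gene with the largest change in CIZ1 null cells on the log2(FPKM + 1) scale. With a pseudocount of 0.1 that of Col15a1 unit 1 was larger (-5.48 against -4.48 for Col7a1 unit 1). Col4a1 and Col4a2, whose products join in the same type IV molecule, lie head to head and share a bidirectional promoter. In the RefSeq annotation of GRCm38.p6 their first exons overlap by 22 bases at chr8:11312805-11312826, and the deposited table gives both units the same locus (chr8:11187755-11449287). Reads from this overlap cannot be assigned without strand. The shared bases are given 5′ to 3′ on each strand, followed by the 100 bases upstream of the Col5a3 start (chr9:20815068-20815167, minus strand) and of the Col7a1 start (chr9:108953486-108953585, plus strand). Capitals mark the GC box GGGCGG on either strand in these upstream bases only. The shared bases hold it too but are left in lower case.
Col4a2 strand (plus): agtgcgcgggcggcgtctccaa
Col4a1 strand (minus): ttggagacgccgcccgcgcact
Col5a3 upstream: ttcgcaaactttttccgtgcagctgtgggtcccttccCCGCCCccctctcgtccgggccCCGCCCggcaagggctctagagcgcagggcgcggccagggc
Col7a1 upstream: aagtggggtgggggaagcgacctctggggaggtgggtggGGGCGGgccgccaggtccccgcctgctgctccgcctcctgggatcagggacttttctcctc

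Promoter sequence from RefSeq was matched to 35 of the 44 collagen genes. In the 250 bases before the start, the GC box GGGCGG was found on either strand in 21 of these (60.0%), compared with 35.4% of 27025 genes. CCAAT was found in 13 (37.1%, against 37.5%) and TATAAA in 5 (14.3%, against 14.3%). Among 9 of the called genes with a promoter, 7 had the GC box, 6 CCAAT and 0 TATAAA in this window. A match is a description of the letters only.

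Summed over all units, collagens held 9709, 9225 and 9150 FPKM in the WT primary populations S01 to S03, 10236 and 9956 in CIZ1 null S04 and S05, and 9311 and 9753 in the untreated inducible populations S06 and S13. The adapted lines held 4876, 6905 and 1401 (WT S07 to S09) and 6410, 2859 and 3239 (CIZ1 null S10 to S12), all below every untreated primary library. Both doxycycline-treated libraries were also below the untreated ones, at 6078 and 5371. As a share of all FPKM, collagens made up 1.41 to 1.46% in WT primary, 0.251 to 1.25% in WT adapted and 0.529 to 1.12% in CIZ1 null adapted cells.

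**Figure D1:**
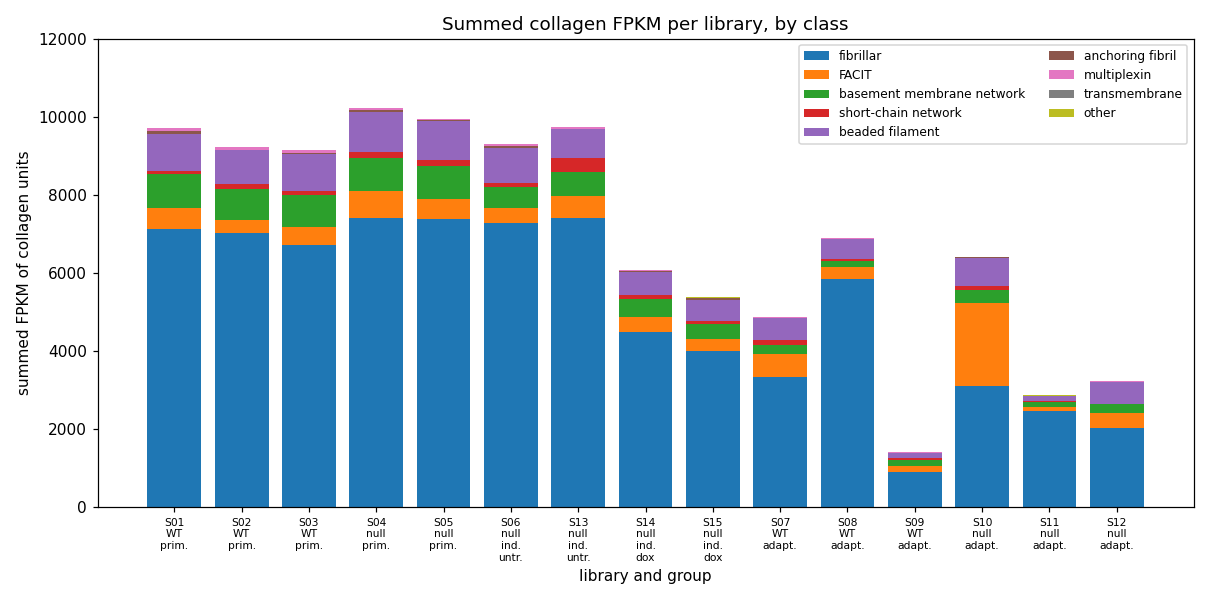
Summed FPKM of collagen units (vertical axis, linear from 0) in each of the 15 libraries (horizontal axis, with its group), stacked by collagen class. Fibrillar collagens form most of every bar except in S10, where their share was 48.2% and FACIT collagens held 33.4%; S09 has the lowest bar at 1401 and S04 the highest at 10236.

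Fibrillar collagens made up 73.4 to 76.1% of the collagen sum in WT primary cells, ahead of beaded-filament collagens (9.34 to 10.3%), basement membrane collagens (8.57 to 8.81%) and FACIT collagens (3.78 to 5.58%). The most abundant unit was Col1a1 at 2926 ± 115 FPKM (SD, n = 3), followed by the first units of Col1a2 at 1499.8 ± 66.7 and Col5a1 at 588 ± 12.1, with Col5a2 unit 1 at 458 ± 22.6 and Col4a1 at 411 ± 17.1. The makeup of the sum was close to fixed among WT primary cells and varied among adapted lines, in which fibrillar collagens were 63.9 to 84.7% (WT) and 48.2 to 86.2% (CIZ1 null), and FACIT collagens 4.52 to 12.3% and 3.47 to 33.4%.

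On culture adaptation of WT cells, 4 of 42 collagen units tested (3 of 25 genes) were called at an adjusted p under 0.05 (limma on log2(FPKM + 1), Benjamini-Hochberg over all 19919 units tested), all of them lower in adapted cells. The background was 9.55% of all units called in either direction, 6.68% lower and 2.87% higher, so the share of collagens called was near the background. Lower in every adapted line than in any primary population were 19 of the 42 units, compared with 21.4% of all units, and 37 of 42 had a negative change. The median change was -0.92 log2 units for collagens and -0.05 for all units. With CIZ1 null cells, 15 of 45 units (10 of 26 genes) fell, against a background of 4.86% in either direction, 3.47% lower and 1.4% higher (20044 units tested). Here 29 of 45 did not overlap and were lower (19.6% of all units), 39 had a negative change, and the median was -1.30 against -0.04. The comparisons of the 2 genotypes share no sample. The 4 units called in WT cells were also called in CIZ1 null cells, out of 41 collagen units tested in both, where 1.86% of all 19153 units tested in both were called lower in both. Lower without overlap in both were 17 of the 41 (12.6% of all units), and 35 had a negative change in both (42.1% of all units). Among the 6 pairs of an adapted line and its own primary population, 21 of these 41 units were lower in all 6 and 13 in 5, compared with 19% and 13.6% of all units.

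The calls rest on few libraries. With the source embryo entered as a blocking term, 3 units were called in WT cells (Col4a1, Col4a2 and Col7a1 unit 1) and 0 of 45 in CIZ1 null cells, where the adjusted p of the 15 units lay between 0.0708 and 0.108. Without S04, S05 or S06 the CIZ1 null count was 0 each time, without S12 it was 1 (Col5a3 unit 1) and without S11 13, while without S10 it was 20. It was 8 without a filter on low FPKM. In WT cells it was 2 without S01, S02 or S03 (Col4a1 and Col4a2), and 9, 6 and 12 without S07, S08 or S09. In all of these fits called collagens were lower in adapted cells. The share of all units called in each of these fits is not set beside the counts. Gains and losses of calls therefore cannot be read as particular to collagens.

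By class, the calls in WT cells were 2 of 18 fibrillar and 2 of 4 basement membrane units. The median change was -0.80 for fibrillar, -0.60 for FACIT, -1.40 for basement membrane, -1.41 for beaded-filament, -0.51 for short-chain, -2.5 for anchoring fibril (2 units) and -2.07 for multiplexin units. In CIZ1 null cells the calls were 7 of 18 fibrillar, 2 of 4 basement membrane, 2 of 2 anchoring fibril and 4 of 4 multiplexin units, and 0 of 5 FACIT, 0 of 5 beaded-filament, 0 of 5 short-chain and 0 of 2 transmembrane units. All 5 beaded-filament units were nevertheless lower without overlap there, and 3 of 5 in WT cells. The CIZ1 null medians were -1.12 (fibrillar), -0.29 (FACIT), -1.16 (basement membrane), -1.36 (beaded filament), -1.74 (short-chain), -3.17 (anchoring fibril), -1.93 (multiplexin) and 0.82 (transmembrane, in which S12 alone was high).

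**Figure D2:**
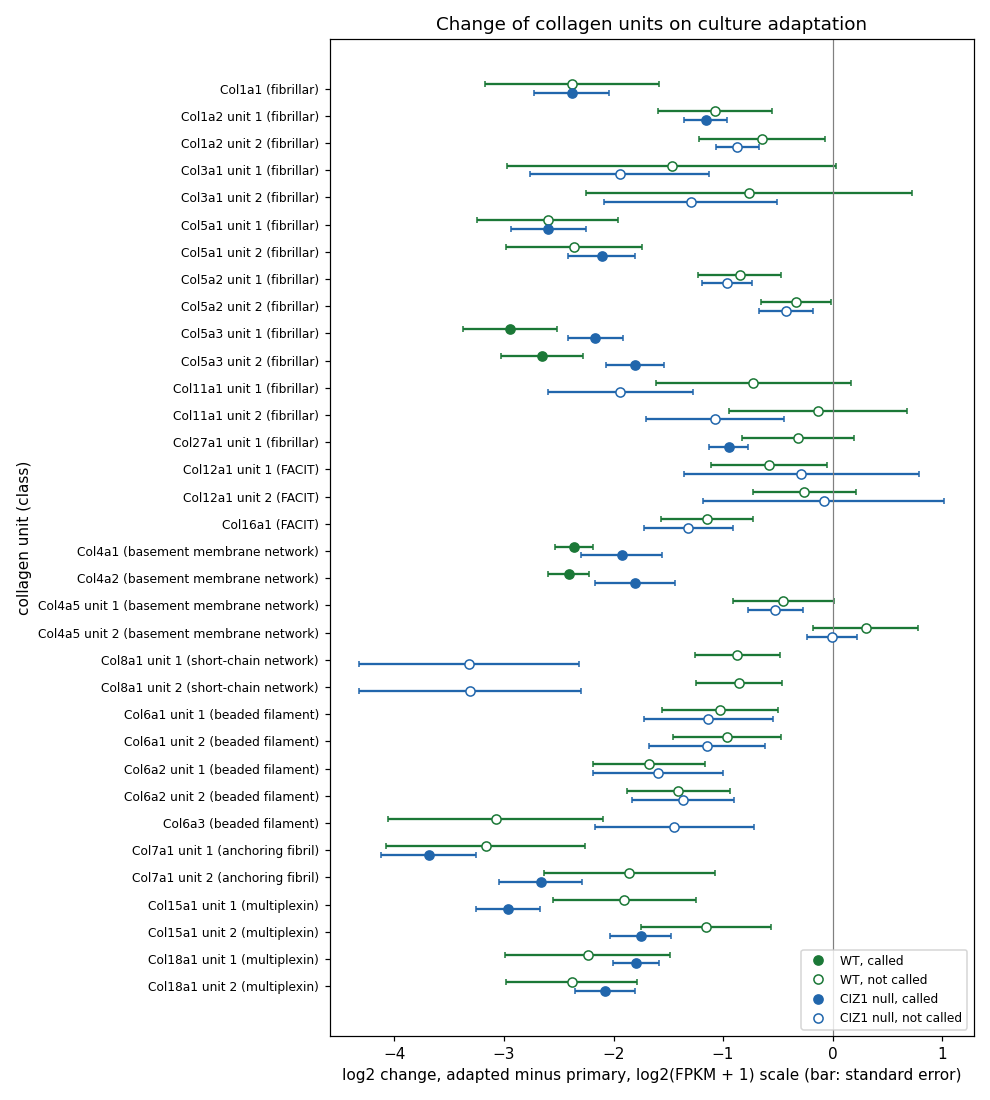
Change on culture adaptation (horizontal axis, adapted minus primary on the log2(FPKM + 1) scale, with the standard error as bars) of the 34 collagen units with a group mean of at least 10 FPKM or a call, in WT (green) and CIZ1 null cells (blue). Filled points passed the adjusted threshold. Nearly all points lie left of 0, and filled points are those of Col4a1, Col4a2 and Col5a3 in both genotypes and of 11 further units in CIZ1 null cells.

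Among fibrillar collagens, 2 of 18 units were called in WT and 7 of 18 in CIZ1 null cells, all lower. Type I collagen is the main protein of skin, bone and tendon, a trimer of a pair of Col1a1 chains and a single Col1a2 chain. Col1a1 (chr11:94936040-94953153) stood at 3059, 2861 and 2858 FPKM in WT primary S01 to S03 and at 1034, 1231 and 139 in WT adapted S07 to S09. In CIZ1 null cells it was at 3078, 3186 and 2865 in S04 to S06 and 1007, 446 and 440.01 in S10 to S12. Every adapted line was below every untreated primary population, S09 by far the most. Col1a1 fell in CIZ1 null cells (log2 change -2.38, SE 0.34, adjusted p = 0.0262), while the same estimate in WT cells, with S09 apart from the others, was not called (log2 change -2.38, SE 0.80, adjusted p = 0.104).

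Col1a2 unit 1 (chr6:4504690-4541544) was at 1535, 1542 and 1423 in WT primary and 889, 1349 and 300.3 in WT adapted cells, and at 1594, 1559 and 1542 (primary) and 850.2, 569.9 and 707 (adapted) in CIZ1 null cells. The adapted line S08 was just below the primary cells, and the groups did not overlap in either genotype. It fell in CIZ1 null cells (log2 change -1.16, SE 0.20, adjusted p = 0.0341) and was not called in WT cells (log2 change -1.07, SE 0.52, adjusted p = 0.216). The second unit read 456, 475 and 385 (primary) and 309, 624 and 112 (adapted) in WT cells, where S08 was above all primary values, and 464, 466 and 527 (primary) and 318, 217 and 269.5 (adapted) in CIZ1 null cells, with adjusted p = 0.486 and 0.0570. The estimated change was larger for Col1a1 than for Col1a2 in both genotypes, and the ratio of Col1a1 to Col1a2 unit 1 was 1.99, 1.86 and 2.01 in WT primary cells, 1.93, 2.04 and 1.86 in CIZ1 null S04 to S06, 1.16, 0.913 and 0.462 in WT adapted and 1.18, 0.783 and 0.622 in CIZ1 null adapted cells. No adapted line reached the ratio of these primary populations. The untreated inducible population S13 did not either, at 1.05. The ratio leaves out Col1a2 unit 2, so it is not a ratio between the 2 genes.

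Type III collagen, a homotrimer that forms fibrils with type I in skin, vessels and wounds, spread widely among adapted lines. Col3a1 unit 1 (chr1:45311443-45349706) was at 322, 339 and 362 FPKM in WT primary cells and 159, 1063 and 10.0 in WT adapted cells. In CIZ1 null cells the values were 493, 468 and 745 in primary and 114, 532 and 48.7 in adapted cells. S08 was above every WT primary population and S09 the lowest of all libraries, so the groups overlapped and neither comparison was called (adjusted p = 0.545 in WT and 0.173 in CIZ1 null cells). S08 and S11, which had the highest Col3a1 among adapted lines of their genotype, were the libraries in which Thy1 was near 0; this was seen after the values were known and was not tested. The second unit had 96.9, 127 and 99.5 in WT primary, 77.1, 553 and 4.97 in WT adapted, 162, 152 and 282 in CIZ1 null primary and 60.0, 269 and 28.0 in CIZ1 null adapted cells, with the same libraries high and low. Without S11, Col3a1 unit 1 was called as lower in CIZ1 null adapted cells.

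Type V collagen nucleates fibrils and limits their width. Col5a1 unit 1 (chr2:27882925-28039523) was at 583, 579.6 and 602 in WT primary and 163, 174 and 30.8 in WT adapted cells, and at 581, 595 and 433 (primary) and 143, 61.7 and 74.9 (adapted) in CIZ1 null cells. The second unit read 229, 224 and 222 (WT primary), 70.3, 78.7 and 14 (WT adapted), 245, 228 and 197 (CIZ1 null primary) and 81.1, 38.9 and 41.4 (CIZ1 null adapted). Neither unit overlapped between primary and adapted cells. Both fell in CIZ1 null cells (unit 1: log2 change -2.59, SE 0.34, adjusted p = 0.0235), and unit 1 missed the threshold in WT cells with a similar estimate (log2 change -2.60, SE 0.64, adjusted p = 0.0534). Without S09, Col1a1 and both Col5a1 units were called in WT cells.

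Col5a2 unit 1 (chr1:45374321-45503680), which encodes the partner chain of type V, was at 449.9, 484 and 441 (primary) and 329.8, 367 and 134 (adapted) in WT cells, and 440.2, 389 and 340.2 (primary) and 247, 154 and 206 (adapted) in CIZ1 null cells. Its groups did not overlap, but the differences were smaller than those of Col5a1 and were not called (log2 change -0.85, adjusted p = 0.187, and -0.96, adjusted p = 0.0618). Its second unit, at 289, 296 and 246 (primary) and 271, 295 and 132 (adapted) in WT cells and 267, 252 and 222 (primary) and 236, 134 and 194 (adapted) in CIZ1 null cells, overlapped in both.

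Col5a3 encodes the third, minor chain of type V. Unit 1 (chr9:20769985-20815072) was at 44.2, 32.4 and 30.1 in WT primary and 5.66, 5.5 and 1.36 in WT adapted cells, and at 27.9, 24.5 and 35.9 (primary) and 5.28, 4.49 and 7.76 (adapted) in CIZ1 null cells. All 6 adapted lines were below 8 FPKM and all 6 primary populations above 24. It fell in WT (log2 change -2.95, SE 0.43, adjusted p = 0.0176) and in CIZ1 null cells (log2 change -2.16, SE 0.25, adjusted p = 0.0209). Unit 2 read 25.4, 17.6 and 14.2 (WT primary), 3.68, 2.36 and 0.913 (WT adapted), 16.6, 12.2 and 20.5 (CIZ1 null primary) and 2.98, 3.66 and 5.31 (CIZ1 null adapted), and was called in both as well (adjusted p = 0.0165 and 0.0271). With the embryo as a block the WT calls were narrowly lost (adjusted p = 0.0523 and 0.0522), and without S01, S02 or S03 they were lost too.

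The cartilage-type fibrillar gene Col11a1, whose chain can also pair with type V chains, was at 19.8, 22.9 and 18.4 in unit 1 (chr3:114030379-114220873) in WT primary cells and 8.06, 56.4 and 3.13 in WT adapted cells. Its values in CIZ1 null cells were 25.1, 22.5 and 32.4 (primary) and 7.35, 16.3 and 1.52 (adapted). S08 was the highest and S12 the lowest of the 12 libraries, and neither genotype gave a call (adjusted p = 0.622 and 0.120). Unit 2 was at 6.92, 7.13 and 5.06 (WT primary), 3.22, 25.5 and 1.66 (WT adapted), 8.18, 7.04 and 10.8 (CIZ1 null primary) and 3.64, 10.2 and 0.802 (CIZ1 null adapted). Col27a1 unit 1 (chr4:63214004-63335459), of a fibrillar gene known from growth-plate cartilage, was low throughout, at 2.92, 3.48 and 2.17 (primary) and 2.14, 5.28 and 0.464 (adapted) in WT cells and 3.58, 3.61 and 3.96 (primary) and 1.28, 1.66 and 1.40 (adapted) in CIZ1 null cells. It overlapped in WT cells and fell in CIZ1 null cells (log2 change -0.95, SE 0.18, adjusted p = 0.0422), where with its units summed to 1 value it was no longer called (adjusted p = 0.0542). Of the remaining fibrillar units, Col2a1, the main collagen of cartilage, stayed at or under 5.86 FPKM except in S08 (15.1), and Col24a1 units at or under 6.16.

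**Figure D3:**
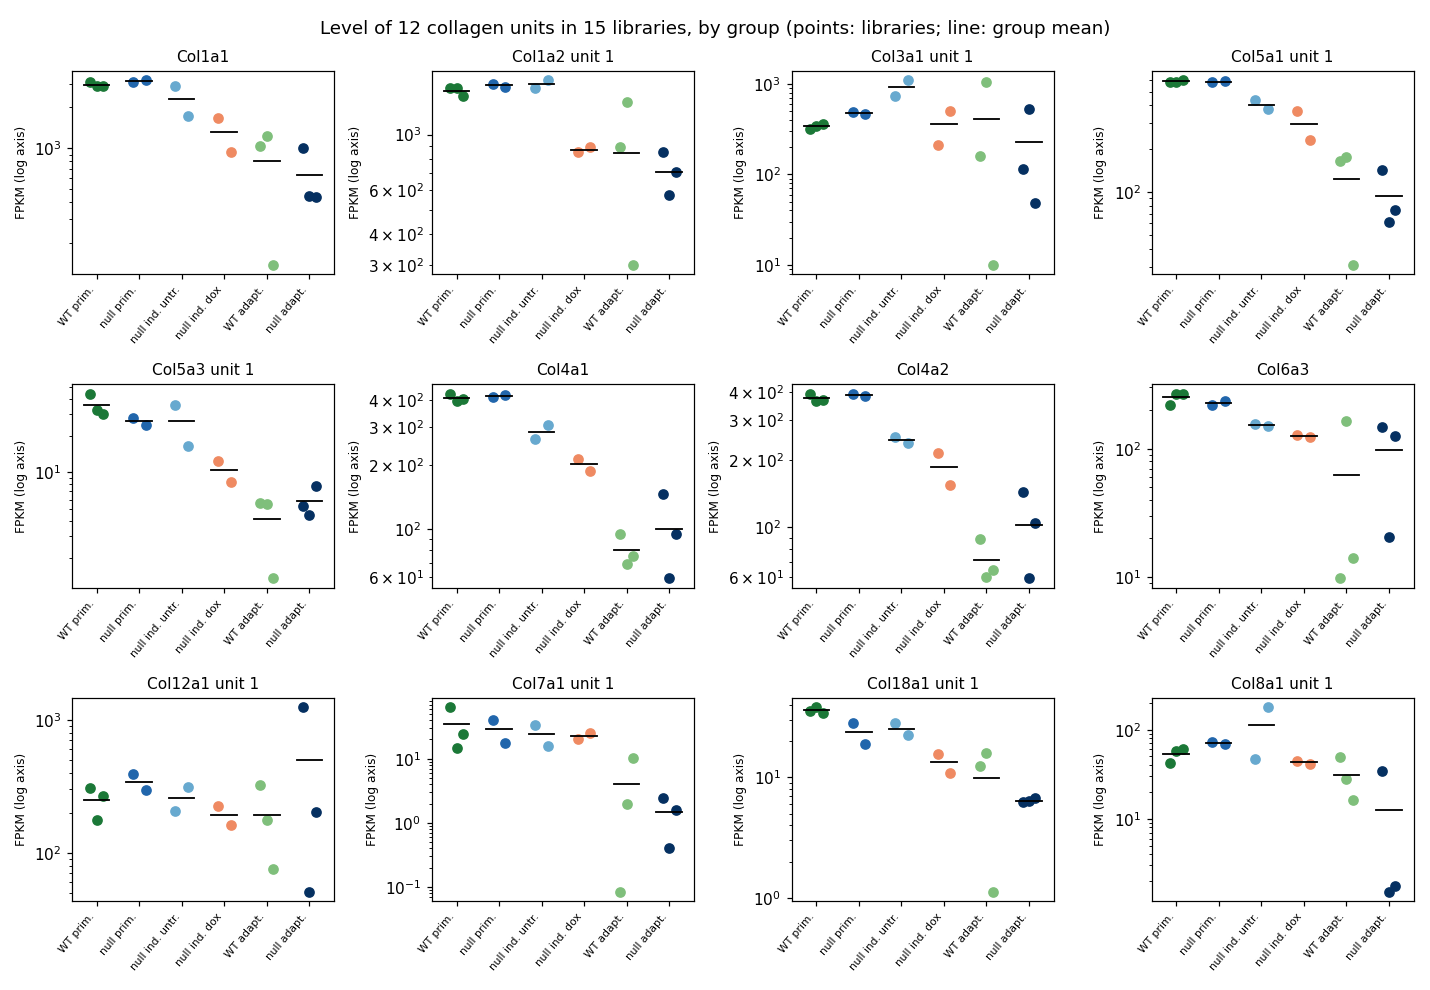
FPKM (log axes, each panel with its own range) of 12 collagen units in the 6 groups; points are libraries and lines are group means. Col4a1, Col4a2 and Col5a3 separate primary from adapted cells in both genotypes, whereas Col3a1 and Col12a1 spread over a wide range among adapted lines.

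Type IV collagen forms the network of basement membranes, mostly as trimers of Col4a1 and Col4a2 chains. Col4a1 was at 429.8, 397 and 405 FPKM in WT primary and 95.5, 68.8 and 75.4 in WT adapted cells, and at 415, 424 and 264 (primary) and 147, 59.2 and 95.2 (adapted) in CIZ1 null cells. Col4a2 was at 395, 367 and 368 (WT primary), 89.0, 60.3 and 64.5 (WT adapted), 395, 386 and 253 (CIZ1 null primary) and 143, 59.2 and 104 (CIZ1 null adapted). The WT adapted lines lay close together for both genes, S09 included, and far below the primary populations. Both fell in WT cells (Col4a1: log2 change -2.36, SE 0.17, adjusted p = 0.00427; Col4a2: log2 change -2.41, SE 0.19, adjusted p = 0.00489) and in CIZ1 null cells (Col4a1: log2 change -1.92, SE 0.37, adjusted p = 0.0436; Col4a2: log2 change -1.81, SE 0.36, adjusted p = 0.0468). In WT cells they were called with the embryo as a block (adjusted p = 0.0291 and 0.0294) and with any 1 library left out. In CIZ1 null cells neither was called with the embryo as a block, after quantile normalization or without a filter on low FPKM. With 1 library left out, both were called without S10 and neither in the other such fits. Neither was called with the 2 primary libraries that lack the transgene, and with all 4 untreated ones only Col4a1 was. The 2 genes with the shared promoter kept a ratio (Col4a1 to Col4a2) between 0.915 and 1.28 in all 15 libraries, while their levels spanned 59.2 to 429.8 and 59.2 to 395 FPKM.

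Col4a5, an X-linked type IV chain, overlapped between primary and adapted cells in both genotypes. Its unit 1 (chrX:141165403-141689234) was at 21.1, 18.1 and 21.9 (primary) and 30.0, 7.20 and 14 (adapted) in WT cells, and 25.8, 19.8 and 16.7 (primary) and 17.5, 10.8 and 14.1 (adapted) in CIZ1 null cells. The second unit was at 8.53, 8.29 and 10.3 (WT primary), 22.2, 4.92 and 12.6 (WT adapted), 12.5, 10.4 and 10.8 (CIZ1 null primary) and 14.3, 8.35 and 11.6 (CIZ1 null adapted). S07 was above all WT primary populations in both units, and neither unit was called (adjusted p = 0.546 and 0.216 for unit 1). Col4a3, Col4a4 and Col4a6 were under 1 FPKM in every library.

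Type VI collagen forms beaded filaments around cells from Col6a1, Col6a2 and Col6a3 chains. Col6a1 unit 1 (chr10:76660448-76726168) was at 276, 226 and 259.9 (primary) and 244, 149 and 51.9 (adapted) in WT cells and 303, 289 and 270.04 (primary) and 256, 48.0 and 178 (adapted) in CIZ1 null cells. Unit 2 read 201, 166 and 185 (WT primary), 171, 114 and 41.6 (WT adapted), 229.7, 209 and 215 (CIZ1 null primary) and 182, 40.0 and 128 (CIZ1 null adapted). S09 and S11 were low, at a level under 60 FPKM, and S07 and S10 lay among or just below the primary populations.

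Col6a2 unit 1 (chr10:76593329-76623630) was at 232, 186 and 211 (primary) and 125, 77.1 and 27.7 (adapted) in WT cells and 249, 245 and 232 (primary) and 138, 28.4 and 126 (adapted) in CIZ1 null cells, without overlap between primary and adapted groups. For unit 2 the values were 22.0, 17.0 and 19.0 (WT primary), 13.5, 7.07 and 2.77 (WT adapted), 22.5, 22.3 and 20.6 (CIZ1 null primary) and 12.6, 3.06 and 11.5 (CIZ1 null adapted). The ratio of Col6a2 to Col6a1 (units 1) was 0.841, 0.824 and 0.811 in WT primary, 0.821, 0.847 and 0.860 in CIZ1 null primary, 0.514, 0.518 and 0.534 in WT adapted and 0.540, 0.590 and 0.710 in CIZ1 null adapted cells, lower in each adapted line than in these 6 primary populations. In the other primary libraries it was 0.739 (untreated S13), 0.703 (treated S14) and 0.681 (treated S15). Both treated libraries were thus below the adapted line S12.

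Col6a3 (chr1:90765923-90844231), the largest chain, was at 219, 266 and 269 in WT primary and 9.79, 164 and 14 in WT adapted cells, and at 220.2, 235 and 155 (primary) and 148, 20.6 and 124 (adapted) in CIZ1 null cells. S07, in which Col6a1 was at a primary level, had the lowest Col6a3 of all libraries, so that the ratio of Col6a3 to Col6a1 unit 1 was 0.0402 there and between 0.269 and 1.18 in the others. No type VI unit was called: in WT cells the adjusted p was 0.242 for Col6a1, 0.0862 for Col6a2 (units 1) and 0.0938 for Col6a3, and in CIZ1 null cells 0.248, 0.139 and 0.237. All 5 type VI units tested were negative in both genotypes. Units of Col6a4, Col6a5 and Col6a6 were under 1 FPKM in every library.

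Type XII collagen is a FACIT collagen of tendon and dense connective tissue that bridges fibrils. Col12a1 unit 1 (chr9:79598701-79719064) was at 309, 177 and 266 in WT primary and 324, 177 and 75.0 in WT adapted cells, and at 388, 296 and 205 (primary) and 1248, 50.9 and 202 (adapted) in CIZ1 null cells. In unit 2 they were 169.97, 102 and 136 (WT primary), 215, 108 and 58.5 (WT adapted), 224, 158 and 121 (CIZ1 null primary) and 845, 30.7 and 136 (CIZ1 null adapted). S10 was the highest of all libraries in both units and S11 the lowest, so the groups overlapped with no call (adjusted p = 0.490 and 0.877 for unit 1). In S10, Col12a1 unit 1 exceeded Col1a1, with a ratio of 1.24 against 0.0619 to 0.541 in the other libraries.

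Col16a1 (chr4:130024256-130099283), a FACIT collagen of dermis and cartilage, was at 56.8, 67 and 65.8 (primary) and 55.7, 23.0 and 16.8 (adapted) in WT cells and 61.2, 71.2 and 69.0 (primary) and 43.4, 13.5 and 30.7 (adapted) in CIZ1 null cells. The groups did not overlap in either genotype, and neither difference was called (log2 change -1.15, adjusted p = 0.124, and -1.32, adjusted p = 0.0978). Col14a1 and Col20a1 stayed at or under 3.39 FPKM in every unit, and Col9a1, Col9a2, Col19a1 and Col22a1 under 1.

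Type VIII collagen is a short-chain collagen of vessel walls and the corneal Descemet membrane. Col8a1 unit 1 (chr16:57624258-57754737) was at 42.0, 57.0 and 60.1 in WT primary and 48.9, 27.8 and 16.5 in WT adapted cells, and at 73.0, 69.2 and 46.3 (primary) and 34.4, 1.52 and 1.77 (adapted) in CIZ1 null cells. Its other unit was at 35.8, 50.8 and 50.8 (WT primary), 41.8, 25.1 and 14 (WT adapted), 65.4, 59.8 and 41.7 (CIZ1 null primary) and 31.5, 1.42 and 1.25 (CIZ1 null adapted). S11 and S12 were at under 2 FPKM in both units, and S10 was close to the WT lines. Neither comparison was called (unit 1 in CIZ1 null cells: log2 change -3.32, adjusted p = 0.0944), and without S10 both units were called in CIZ1 null cells. Col8a2, the partner chain, was highest of all libraries in S10 (20.7 in unit 1, against 0 to 9.99 elsewhere), and Col10a1, a marker of hypertrophic cartilage, ranged from 0 to 11.1.

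Type VII collagen anchors the epidermal basement membrane to the dermis and is made by keratinocytes and fibroblasts. Col7a1 unit 1 (chr9:108953586-108985652) was at 64.3, 14.5 and 24.7 in WT primary and 0.0838, 1.95 and 10.2 in WT adapted cells, and at 40.9, 17.5 and 33.6 (primary) and 2.46, 0.408 and 1.59 (adapted) in CIZ1 null cells. The other unit stood at 12.7, 1.69 and 4.52 (WT primary), 0, 0 and 3.29 (WT adapted), 11.4, 6.99 and 11.5 (CIZ1 null primary) and 1.15, 0 and 1.27 (CIZ1 null adapted). Adapted lines were lower throughout in unit 1, with S07 nearest to 0 and S09 the highest of them. Both units fell in CIZ1 null cells (unit 1: log2 change -3.69, SE 0.43, adjusted p = 0.0210; unit 2: log2 change -2.66, SE 0.38, adjusted p = 0.0261), and unit 1 in WT cells was called only in some alternatives (log2 change -3.17, SE 0.91, adjusted p = 0.0739 in the fit used here, and called with the embryo as a block and without S09).

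The multiplexins bear glycosaminoglycan chains at the border of basement membranes, and the end of Col18a1 is cleaved to give endostatin. Col18a1 unit 1 (chr10:77032241-77166548) was at 35.5, 38.1 and 33.8 (primary) and 12.3, 15.9 and 1.13 (adapted) in WT cells, and 28.1, 19.0 and 28.2 (primary) and 6.20, 6.34 and 6.69 (adapted) in CIZ1 null cells. Unit 2 was at 21.3, 21.5 and 19.4 (WT primary), 4.77, 7.19 and 0.529 (WT adapted), 18.7, 11.1 and 19.1 (CIZ1 null primary) and 2.45, 2.66 and 4.07 (CIZ1 null adapted). The CIZ1 null adapted lines were within 1 FPKM of each other in unit 1, and in WT cells S09 was the lowest by far. Both units fell in CIZ1 null cells (unit 1: log2 change -1.79, SE 0.21, adjusted p = 0.0209; unit 2: log2 change -2.07, SE 0.28, adjusted p = 0.0235) and missed the threshold in WT cells (adjusted p = 0.105 and 0.0551).

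Col15a1 unit 1 (chr4:47197487-47313167), of a collagen of vessel and muscle basement membranes, was at 9.36, 5.5 and 5.65 (primary) and 4.89, 0 and 0.455 (adapted) in WT cells, and 7.97, 10.6 and 5.65 (primary) and 0.466, 0 and 0 (adapted) in CIZ1 null cells. The second unit was at 4.44, 2.81 and 2.32 (WT primary), 3.75, 0 and 0.317 (WT adapted), 2.33, 3.70 and 1.70 (CIZ1 null primary) and 0.105, 0 and 0 (CIZ1 null adapted). Both units were listed at 0 in S08, S11 and S12, while S07 was just under the WT primary range in unit 1 and within it in unit 2. Both units fell in CIZ1 null cells (unit 1: log2 change -2.96, SE 0.29, adjusted p = 0.0194; unit 2: log2 change -1.75, SE 0.28, adjusted p = 0.0307), a change that the pseudocount of 1 understates at such levels. In WT cells unit 1 was not called (adjusted p = 0.109).

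The transmembrane collagens Col13a1, Col17a1, Col23a1 and Col25a1 and the classless Col26a1 and Col28a1 were low. Col17a1 unit 1 reached 4.33 in S06 and was at 0 in 11 of the libraries. Col23a1, of which both units were under 0.5 FPKM elsewhere, stood at 5.79 and 5.01 in S12 alone. Col28a1 peaked in S13, at 4.42 and 3.43. No unit of these genes was called in any comparison.

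Collagens varied more among adapted lines than among primary populations. Over units with a mean of at least 10 FPKM, the median SD between libraries on the log2 scale was 0.147 for the 28 collagen units and 0.157 for all 8024 units in WT primary cells, and 0.266 and 0.2 in the 3 CIZ1 null primary populations. In WT adapted cells it was 1.07 for collagens and 0.359 for all units, and in CIZ1 null adapted cells 0.672 and 0.358. Among the 34 units described by library, S09 was the lowest WT adapted line in 25 and S11 the lowest CIZ1 null adapted line in 24, whereas S10 was the highest CIZ1 null line in 24. Both Col15a1 units, tied at 0 in S11 and S12, were counted for S11. Col1a1 had the same estimate, -2.38, in both genotypes, with a standard error of 0.80 in WT and 0.34 in CIZ1 null cells. Single-library makeup differed as well: the ratio of Col3a1 unit 1 to Col1a1 was 0.105, 0.119 and 0.126 in WT primary cells, 0.154, 0.863 and 0.0722 in WT adapted and 0.113, 1.19 and 0.111 in CIZ1 null adapted cells, high in S08 and S11.

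**Figure D4:**
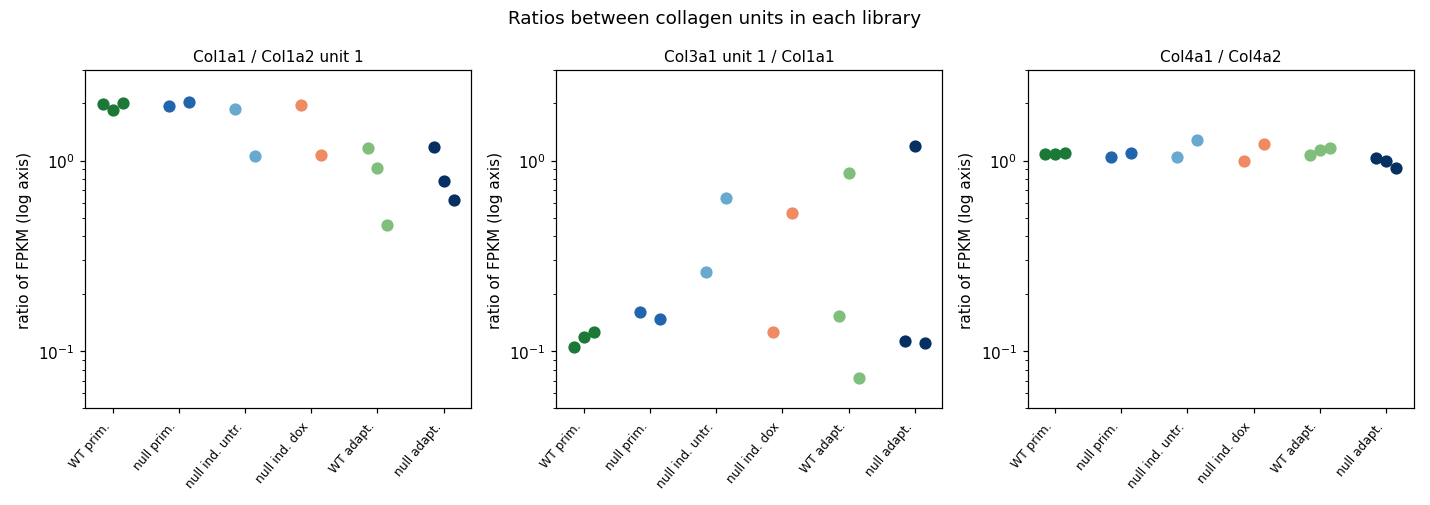
Ratio of FPKM between collagen units in each library (log axes, 1 point per library) by group, for Col1a1 over Col1a2 unit 1, Col3a1 unit 1 over Col1a1, and Col4a1 over Col4a2. Adapted lines lie below the WT primary populations in the first panel and are scattered in the second, and all 15 libraries lie between 0.915 and 1.28 in the third.

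Loss of CIZ1 in primary cells (S04 to S06 against S01 to S03) gave no collagen call, 0 of 43 units, where 0.00511% of 19566 units were called by limma. With Cuffdiff the study reported larger sets of CIZ1-dependent units in these primary populations and in the adapted lines. Those results were not used here. An unadjusted p under 0.05 was reached by 7 collagen units and by 1225 of all units (6.26%), and the median change was 0.17 log2 units against -0.0002 for all units. There were 11 units higher and 3 lower without overlap, compared with 6.13% of all units higher and 5.72% lower. Those higher were Col1a2 unit 1, both Col3a1 units, Col24a1 unit 2, Col27a1 unit 1, Col14a1 unit 1, Col4a5 unit 2, both Col8a2 units, Col6a1 unit 2 and Col6a2 unit 1. The Col3a1 units had the largest of these differences among abundant units. Unit 1 was at 322, 339 and 362 FPKM in WT and 493, 468 and 745 in CIZ1 null cells (log2 change 0.71, adjusted p by limma = 0.680), and the change of unit 2 was 0.83. S06, the transgenic population, had the highest value of unit 1. Lower without overlap were Col5a2 unit 1 and both Col18a1 units (unit 1: log2 change -0.52, adjusted p = 0.747). Col1a1 differed by 0.06 log2 units (SE 0.09), less than the spread between populations.

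In adapted lines, loss of CIZ1 (S10 to S12 against S07 to S09) gave 0 of 42 calls with 0.00501% of all units called. An unadjusted p under 0.05 by limma was reached by 0 collagen units and by 804 of all 19976 units (4.02%). The groups did not overlap for 1 collagen unit, Col20a1, a low FACIT collagen (1.68, 1.51 and 0.899 in WT, 2.01, 2.64 and 2.48 in CIZ1 null lines), where 8.28% of all units did not overlap. The median change was 0.06 for collagens and 0.03 for all units. The difference in adaptation between genotypes, tested as an interaction over 12 libraries, was called for 0 of 42 collagen units and for 0% of all units (0 of 20046). At an unadjusted p under 0.05 by limma were 0 collagen units and 928 of all units (4.63%). The calls made in CIZ1 null and not in WT cells are thus not shown to differ between genotypes. Without S10 the interaction was called for both units of Col8a1, which are near 0 in the other CIZ1 null adapted lines. A p that misses the threshold does not show that the groups were alike.

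Induction of GFP-CIZ1 was compared between S14 and S15 and the untreated S06 and S13. No library without the transgene was treated, so doxycycline itself cannot be told apart from GFP-CIZ1. Ciz1 was at 296 and 191 FPKM in S14 and S15, above the 18.7 to 25.0 of the WT libraries. None of 46 collagen units was called by limma, as were 0.0101% of 19768 units, and 9 collagen units had an unadjusted p under 0.05, as did 347 of all units (1.76%). Of the 46, 42 were negative and 29 were lower in both treated libraries than in both untreated ones, compared with 10.8% of all units. The median change was -0.62 for collagens and -0.006 for all units. By class, 14 of 18 fibrillar, 5 of 5 beaded-filament, 4 of 4 multiplexin, 2 of 4 basement membrane, 2 of 5 FACIT, 2 of 5 short-chain and 0 of 2 anchoring fibril units were lower without overlap.

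Col1a1 was at 2865 and 1743 FPKM in the untreated S06 and S13 and 1676 and 946 in the treated S14 and S15. Col1a2 unit 1 was at 1542 and 1656 (untreated) against 851 and 889 (treated), and unit 2 at 527 and 825 (untreated) against 320.2 and 459 (treated). Col3a1 was at 745 and 1108 (untreated) against 212 and 503 (treated) in unit 1, and at 282 and 530.4 (untreated) against 90.7 and 253 (treated) in unit 2. All of these were lower in both treated libraries. Among them Col1a2 unit 1 had a log2 change of -0.88 with an SE of 0.22, and Col3a1 unit 1 the largest estimate (-1.47). Type V chains differed less in Col5a1 and Col5a2 than in Col5a3: Col5a1 unit 1 was at 433 and 377 (untreated) against 368 and 228 (treated), with unit 2 at 197 and 199 (untreated) against 176 and 109.97 (treated). Col5a2 overlapped, at 340.2 and 452 (untreated) against 408 and 292 (treated) (unit 2 at 222 and 391 (untreated) against 324 and 275 (treated)). Col5a3 unit 1 was at 35.9 and 16.3 (untreated) against 12.5 and 8.33 (treated) (log2 change -1.18), and unit 2 at 20.5 and 10.9 (untreated) against 7.81 and 4.79 (treated).

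The other fibrillar units were Col11a1 unit 1, at 32.4 and 58.1 (untreated) against 15.9 and 22.9 (treated), its unit 2 at 10.8 and 24.8 (untreated) against 5.19 and 10.6 (treated), and Col27a1 unit 1 at 3.96 and 2.86 (untreated) against 0.912 and 2.24 (treated). Col4a1 was at 264 and 306 (untreated) against 214 and 188 (treated), and Col4a2 at 253 and 238 (untreated) against 216 and 155 (treated). Col4a5 overlapped, at 16.7 and 39.1 (untreated) against 20.1 and 19.8 (treated) in unit 1 and 10.8 and 31.3 (untreated) against 10.5 and 15.9 (treated) in unit 2. Among these, Col4a1, Col4a2, Col27a1 unit 1 and both Col11a1 units were lower in both treated libraries. Type VI units were at 270.04 and 233 (untreated) against 176 and 169 (treated) (Col6a1 unit 1), 215 and 171 (untreated) against 140.2 and 127 (treated) (Col6a1 unit 2), 232 and 172 (untreated) against 124 and 115 (treated) (Col6a2 unit 1), 20.6 and 16 (untreated) against 12.1 and 10.4 (treated) (Col6a2 unit 2) and 155 and 151 (untreated) against 128 and 123 (treated) (Col6a3). Every one of them was lower with doxycycline.

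Of the remaining units, Col18a1 was at 28.2 and 22.2 (untreated) against 15.7 and 10.9 (treated) in unit 1 and 19.1 and 14.9 (untreated) against 11.9 and 6.87 (treated) in unit 2. Col15a1 was at 5.65 and 4.06 (untreated) against 1.92 and 1.22 (treated) in unit 1 and 1.70 and 1.93 (untreated) against 0.698 and 0.854 (treated) in unit 2. Col16a1 was at 69.0 and 55.2 (untreated) against 48.2 and 43.0 (treated). The multiplexins and Col16a1 were thus lower in both treated libraries. Col12a1 unit 1 overlapped, at 205 and 315 (untreated) against 226 and 161 (treated) (unit 2 at 121 and 195 (untreated) against 123 and 98.2 (treated)). Col7a1 unit 1, at 33.6 and 15.6 (untreated) against 20.0 and 25.4 (treated), overlapped as well, with unit 2 at 11.5 and 4.85 (untreated) against 9.01 and 4.22 (treated). Col8a1 unit 1 was at 46.3 and 179.5 (untreated) against 44.9 and 41.0 (treated) and unit 2 at 41.7 and 156 (untreated) against 38.8 and 36.3 (treated), with S13 far above all other libraries.

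The untreated libraries differed from each other in makeup, and so did the treated ones. The ratio of Col1a1 to Col1a2 unit 1 was 1.86 in S06, 1.05 in S13, 1.97 in S14 and 1.06 in S15, and that of Col3a1 unit 1 to Col1a1 0.260, 0.636, 0.127 and 0.532 in the same order. The study names the line of S06 and 1 other CIZ1 null line as the induced cells, so treated and untreated libraries were not from independent embryos. Which treated library came from which line is not given in the sources used here, and the fit above does not use it. With the line as a block, 0 collagen units were called under either possible pairing of S06 and S13 with S14 and S15. Smooth muscle markers summed to 2717 to 4504 FPKM in untreated and 2588 to 4680 in treated inducible cells, and macrophage markers to 73.9 to 96.8 and 68.2 to 91.3, both ranges overlapping.

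Genes that make, export, process, crosslink or bind collagen were taken from a fixed list and tested in the same fits. In WT adaptation, 15 of 76 units (10 of 42 genes) fell and 0 rose, where 6.68% of all units were called lower, and in CIZ1 null adaptation 9 of 75 units (6 of 41 genes) fell and 0 rose, where 3.47% were. With quantile normalization these counts were 9 and 7, of which 9 and 6 were lower. The median change of the units was -0.81 and -0.55 log2 units. With the embryo as a block the counts were 3 and 0. They were 0 without any 1 of the primary populations in both genotypes, 0 without S12 and 22 without S10 in CIZ1 null cells. No share of all units called is set beside the counts of these alternative fits. The other 4 comparisons gave 0 calls.

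By role, the WT calls were 6 of 21 units for prolyl hydroxylation, 4 of 12 for propeptide cleavage, 3 of 11 for receptors, 1 of 11 for lysyl hydroxylation and glycosylation, 1 of 9 for crosslinking and 0 of 12 for chaperones and export. Those with the largest change were Tll1, a protease of the procollagen C-propeptide (unit 1 from 42.8 ± 13.2 to 10.2 ± 3.61 FPKM, log2 change -1.98, adjusted p = 0.0206), and Pcolce2, an enhancer of that cleavage (from 11.9 ± 5.52 to 2.84 ± 1.30 FPKM, log2 change -1.70, adjusted p = 0.0462). They were followed by Tll1 unit 2 (from 10.4 ± 3.58 to 3.05 ± 1.48 FPKM, log2 change -1.51, adjusted p = 0.0412), the endocytic collagen receptor Mrc2 (from 68.9 ± 10.9 to 26.1 ± 4.15 FPKM, log2 change -1.37, adjusted p = 0.0177) and P3h4, a cofactor of collagen hydroxylation (unit 3 from 10.9 ± 0.892 to 3.88 ± 1.46 FPKM, log2 change -1.32, adjusted p = 0.0284). Bmp1, the main C-propeptidase, completed the 6 largest (from 163 ± 32.6 to 65.8 ± 18.9 FPKM, log2 change -1.31, adjusted p = 0.0320). In CIZ1 null cells the calls were 5 of 11 units for lysyl hydroxylation and glycosylation, 3 of 21 for prolyl hydroxylation and 1 of 12 for chaperones and export. The largest were units 2 and 1 of Fkbp10, a chaperone of lysyl hydroxylation (unit 2 from 186 ± 12.1 to 53.9 ± 13.8 FPKM, log2 change -1.79, adjusted p = 0.0215, and unit 1 from 214 ± 5.84 to 69.6 ± 19.1 FPKM, log2 change -1.64, adjusted p = 0.0260), and P3h1, a prolyl 3-hydroxylase (from 55.5 ± 0.967 to 21.6 ± 2.57 FPKM, log2 change -1.33, adjusted p = 0.0215). The third, low unit of Fkbp10 was not called and its change was positive (from 2.58 ± 0.612 to 4.50 ± 0.762 FPKM, log2 change 0.62, adjusted p = 0.127). P3h4 unit 3 (from 8.98 ± 1.82 to 3.17 ± 1.16 FPKM, log2 change -1.28, adjusted p = 0.0490), the collagen chaperone Serpinh1, also called HSP47 (unit 2 from 269.9 ± 32.4 to 114 ± 32.1 FPKM, log2 change -1.27, adjusted p = 0.0469), and the lysyl hydroxylase Plod1 (unit 2 from 10.1 ± 2.29 to 4.13 ± 0.0472 FPKM, log2 change -1.09, adjusted p = 0.0377) came next. Means are given with the SD, n = 3 in each group.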

How the data were processed

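Expression in 15 libraries of poly(A)-selected RNA from PEFs and derived lines was measured by RNA-seq. The authors trimmed reads with Cutadapt 1.8.3, aligned them to GRCm38 with HISAT2 2.0.5, assembled transcription units and normalised them with Cufflinks tools, depositing 1 FPKM per unit and library. A second deposited table, with the authors' fold changes, p-values and q-values from Cuffdiff 2.2.1, was not used. The study gives an approximate read number per sample but none for each library. The depth of a single library is thus known only in relative terms, and values carry no counting interval.

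Groups came from the labels. For S06 the source name ends in S13 while its title reads S06, and the title was used. Units with a mean of at least 1 FPKM over the libraries compared were fitted as log2(FPKM + 1) with limma 3.58.1 in R 4.3.3 (lmFit, eBayes with trend). Benjamini-Hochberg adjustment covered all units tested, with a threshold of 0.05. The pseudocount of 1 understates changes of low units. Units with a group mean of at least 10 FPKM or a call are given by library. Partner genes called are named, at most 6 per comparison by size of change. The members, classes and lists were chosen with earlier results of these data known. The fits were tested on simulated data. Tables and figures were made with pandas 2.3.3, Matplotlib 3.10.9 and NumPy 2.4.6 under Python 3.11.15.

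Adapted lines and primary populations were paired by embryo, since each line derives from a primary population. The embryo of each of 12 libraries was read from per-line tables of the study that hold identical values. Deviations of paired libraries from their group means correlated across units at 0.211 (S01 and S09), 0.146 (S02 and S07), -0.00539 (S03 and S08), -0.019 (S04 and S12), 0.106 (S05 and S10) and 0.0881 (S06 and S11). The alternatives tried were the embryo as a block, a pseudocount of 0.1, no filter, quantile normalization, each library left out, other sets of primary CIZ1 null libraries, all 12 libraries in a single fit, median-of-ratios scaling of sums and, chosen after seeing the data, the units of a gene summed and, for induction, a block by line under both possible pairings.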

Additional observations from a re-analysis of the deposited data

How the results depend on the processing

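No collagen value that was called changed sign under any alternative. In WT adaptation the count of 4 called units was 4 with a pseudocount of 0.1, without a filter and after quantile normalization, 12 with all 12 libraries in a single fit, 3 with the units of a gene summed, and 2 to 12 when each library was left out. In CIZ1 null adaptation the count of 15 was 8 without a filter, 14 with a pseudocount of 0.1, 13 after quantile normalization or with all 4 untreated primary CIZ1 null libraries, 14 with 12 libraries in a single fit, 9 with the units of a gene summed, 0 with the 2 primary libraries that lack the transgene, and 0 to 20 when each library was left out. With the replicate block (embryo) the counts were 3 and 0, and 0 for the interaction. The causes were not tested. How many of all units were called is given below for quantile normalization only. The counts of the other alternatives thus have no background beside them. The sets without S10 or S11 were as small as those without S06, and gave 20 and 13 calls in CIZ1 null adaptation. The sets without S06 kept the adapted line S11, which carries the transgene. Quantile normalization moved the median of all units from -0.05 to 0.06 in WT and from -0.04 to 0.06 in CIZ1 null cells, and the split of all units called from 572 higher and 1330 lower to 982 and 1081 in WT cells, and from 280 and 695 to 351 and 501 in CIZ1 null cells. Both comparisons of CIZ1 null with WT cells and the induction of GFP-CIZ1 gave 0 collagen calls under every alternative run, and the interaction 0 to 2 when each library was left out and 0 otherwise. Summed collagen FPKM per group moved by less than 1 SD under median-of-ratios scaling. Partner units called in WT adaptation (15) numbered 4 without a filter, 9 after quantile normalization, 3 with the replicate block and 0 to 20 when each library was left out. In CIZ1 null adaptation (9) they numbered 4 without a filter, 0 with the replicate block, 5 with all 4 untreated primary CIZ1 null libraries, 0 with the 2 that lack the transgene, 18 with 12 libraries in a single fit and 0 to 22 when each library was left out. For induction, a replicate block by line was added after seeing the data under both possible pairings (S06 with S14, and S06 with S15), since the lines of S13 to S15 are not in the labels; it gave 0 collagen calls each time. Induction compares 2 libraries with 2, and the depth of each library is known only in relative terms.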
